A study of Mus musculus with 6 samples.

Results

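The Hox genes of the 4 mouse clusters, HoxA, HoxB, HoxC and HoxD, were examined in neural stem/progenitor cells transduced with a vector for Bmi1, a core subunit of Polycomb repressive complex 1. A gene counted as a member when a probe set of the array named it alone and its symbol was Hoxa, Hoxb, Hoxc or Hoxd followed by a number. This gave 37 Hox genes among the 19938 genes with a probe set of their own, namely 10 of HoxA, 9 of HoxB, 9 of HoxC and 9 of HoxD. Hoxb8 shared its probe set with Hoxb7 (log2 difference -0.07) and was not measured alone.

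The cells came from the lateral ventricle wall of 4 to 6 week-old mice of the outbred CD1 strain and grew as neurospheres, free-floating spheres of neural stem/progenitor cells. Bmi1 overexpression cultures received a pCMMP retroviral vector carrying Bmi1, and Empty vector control cultures received the vector without an insert. Both groups share the transduction, the eGFP encoded by the vector, the sort on eGFP and culture at clonal density. Each group holds 3 arrays, described by the series as independent cultures, and the labels name no separate mice. The labels name an unflagged Bmi1 insert, whereas the text of the study names Bmi1-FLAG, a tagged form, for these arrays, and which was used is not settled here. For each of the 6 arrays 1 label, the source, gives the other group than the title, transduction and genotype do. These 3 name the same group throughout and were followed, and every direction below rests on them.

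Hox genes encode homeodomain transcription factors that give cells of the trunk, spinal cord and hindbrain their position along the head-to-tail axis. Within a cluster their order on the chromosome follows the order of their expression domains, from anterior genes (paralog groups 1 to 3) over central genes (groups 4 to 8) to posterior genes (groups 9 to 13). The forebrain, which includes the lateral ventricle wall, normally keeps them silent. Polycomb complexes hold them in that state through histone H3 lysine methylation and H2A ubiquitination, and loss of Bmi1 in mice shifts vertebrae towards a more posterior identity. The genes at the borders of the clusters lie within the same wide regulatory landscapes. At HoxD, for example, Lnpk and Evx2 respond to the digit enhancers that drive the posterior Hoxd genes in the limb bud.

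Mammalian Polycomb complexes are concentrated at promoters rich in the dinucleotide CG. The 250 bases before the start of 4 genes are therefore printed, for the Hox gene with the widest difference between the groups and for the 3 genes beside HoxD and HoxA on which the results turn. They are taken from RefSeq for build GRCm38.p6, read 5′ to 3′ on the strand of the gene, and capitals mark each CG.
Hoxa5, chr6:52204588-52204837, minus strand: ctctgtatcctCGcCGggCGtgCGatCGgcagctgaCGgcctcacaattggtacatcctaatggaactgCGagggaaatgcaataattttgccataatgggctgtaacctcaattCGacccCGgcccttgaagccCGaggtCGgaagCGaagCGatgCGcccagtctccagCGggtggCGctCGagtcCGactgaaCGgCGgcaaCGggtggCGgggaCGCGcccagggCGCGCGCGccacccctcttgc
Lnpk, chr2:74578949-74579198, minus strand: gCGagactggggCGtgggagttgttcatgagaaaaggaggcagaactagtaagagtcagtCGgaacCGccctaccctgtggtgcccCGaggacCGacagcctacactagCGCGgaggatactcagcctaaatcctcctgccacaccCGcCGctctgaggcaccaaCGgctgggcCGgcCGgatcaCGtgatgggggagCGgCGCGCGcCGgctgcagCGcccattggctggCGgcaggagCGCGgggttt
Mtx2, chr2:74825562-74825811, plus strand: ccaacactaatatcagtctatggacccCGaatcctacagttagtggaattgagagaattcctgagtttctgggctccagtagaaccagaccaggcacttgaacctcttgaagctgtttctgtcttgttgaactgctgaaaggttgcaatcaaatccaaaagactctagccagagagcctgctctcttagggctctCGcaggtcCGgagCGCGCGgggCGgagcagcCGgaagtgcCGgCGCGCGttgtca
Skap2, chr6:52012550-52012799, minus strand: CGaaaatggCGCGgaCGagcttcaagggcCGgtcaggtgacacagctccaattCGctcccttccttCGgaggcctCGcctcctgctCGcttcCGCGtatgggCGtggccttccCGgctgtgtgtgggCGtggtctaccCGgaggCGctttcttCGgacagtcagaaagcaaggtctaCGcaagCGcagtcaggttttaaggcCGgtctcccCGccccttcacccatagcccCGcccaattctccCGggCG
The promoter of Hoxa5 holds 28 CG, a number that 7.61% of all promoters in the RefSeq table reach. Skap2 holds 24 (reached by 12%), Lnpk 23 (13.3%) and Mtx2 12 (33.5%). All 4 of these genes read lower with Bmi1, but they were picked for their differences. Their shared direction is therefore no result about CG counts. High counts were also found beside genes that did not read lower. The promoters of Jazf1 hold 28 and 1 CG and those of Snx10 hold 11, 35 and 17, and both genes read higher with Bmi1. Evx2, which differed little, holds 14. Over all 32851 promoters of 27025 genes the median was 6 CG, with a range of 0 to 56, and 92.1% held at least 1. For the Hox genes, 23 promoters of 21 genes were matched, with a median of 13 and a range of 2 to 35. CG reads the same on both strands. These counts describe the reference sequence, and no methylation or binding was measured on the arrays.

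MicroRNA genes lie between the Hox genes, and they are printed here because the small RNA results given further on concern them. Their mature sequences are printed from RefSeq (GRCm38.p6), 5′ to 3′, with the seed, bases 2 to 8, in capitals.
miR-10a-5p, chr11:96317186-96317208, plus strand, HoxB: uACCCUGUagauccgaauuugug
miR-10b-5p, chr2:74726074-74726096, plus strand, HoxD: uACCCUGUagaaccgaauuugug
miR-196a-5p, chr11:96265187-96265208 in HoxB and chr15:102973365-102973386 in HoxC, plus strand: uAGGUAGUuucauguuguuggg
miR-196b-5p, chr6:52230129-52230150, minus strand, HoxA: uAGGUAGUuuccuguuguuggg
miR-615-3p, chr15:103014969-103014990, plus strand, HoxC: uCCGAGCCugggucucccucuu
Both miR-10 sequences share the seed ACCCUGU, the miR-196 sequences share AGGUAGU, and miR-615-3p has a seed of its own.

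Each array gave 35557 probe set values on the log2 scale after robust multi-array average (RMA), a procedure that subtracts background, brings the arrays to a common distribution and summarizes the probes of each probe set. Array medians lay between 4.371 and 4.451, and the correlation of arrays across probe sets was 0.9909 or higher inside a group and 0.9869 or lower for arrays of different groups. Differences are log2 values of Bmi1 overexpression minus Empty vector control. They were tested with limma, and a gene is said to rise or fall where its adjusted p was under 0.05. The targeted gene Bmi1 (probe set 10469514) read 9.18, 8.36 and 8.42 in Bmi1 overexpression cultures, against 7.70, 8.41 and 8.31 in Empty vector controls. Its groups overlapped, with a difference of 0.52 (95% interval -0.16 to 1.19, adjusted p = 0.38 from limma). Only the first Bmi1 array read clearly above all Empty vector arrays. Overexpression thus rests here on the 3 labels that were followed and not on this probe set. Whether its probes read the vector's insert was not tested. Of 13 measured markers of neural stem/progenitor cells, 11 had a mean of at least 6 over the 6 arrays. Sox2 averaged 10.42 in Bmi1 overexpression and 10.20 in Empty vector controls, Nes 9.64 and 9.69, and Vim 12.25 and 12.27. The 2 markers with a mean under 5 were Gfap, which averaged 3.49 and 3.39, and Prom1, which averaged 5.44 and 3.86.

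None of the 37 Hox genes rose or fell in Bmi1 overexpression cultures. Their median difference was 0.041, against 0.018 over all probe sets, with 22 genes above 0 and 15 below 0. Differences ran from -0.52 for Hoxa5 to 0.22 for Hoxd8, and without Hoxa5 the lowest was -0.11. The 95% intervals of all 37 genes lay within 1 log2 unit of 0, and those of 35 lay within 0.5, Hoxa5 and Hoxa11 being the exceptions. A change of 2-fold or more in either direction was thus outside the interval of every Hox gene measured. Of all probe sets, 5.70% passed the test. The Hox genes are dim, and among probe sets with a mean under 5 only 2.32% passed. The count of 0 among 37 is near that background and says little about the Hox genes as a group. It was also 0 with the methods' t-test after Benjamini-Hochberg adjustment, with equal or unequal variances.

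The level of the Hox genes was low in both groups. The median of the gene means was 3.759 in Bmi1 overexpression and 3.713 in Empty vector controls. A mean under 5 over the 6 arrays was read for 35 of 37 genes (94.6%), against 57.4% of all probe sets. Hoxa4 and Hoxd11 were the 2 genes above it. Averaged over all 37 genes, the arrays read 3.933, 3.922 and 3.968 with Bmi1 and 3.955, 3.891 and 3.855 with the empty vector. The groups overlapped in this average, since the first Empty vector array lay above 2 of the 3 Bmi1 arrays. The deposited table holds no detection calls, so a low reading cannot be told apart from background. RMA compresses changes at such readings, and the intervals bound the change of the reading rather than that of the RNA. Levels of different probe sets depend on their probes and were not ranked against each other. In these bulk samples fewer cells of a type and less RNA per cell cannot be told apart either.

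**Figure D1:**
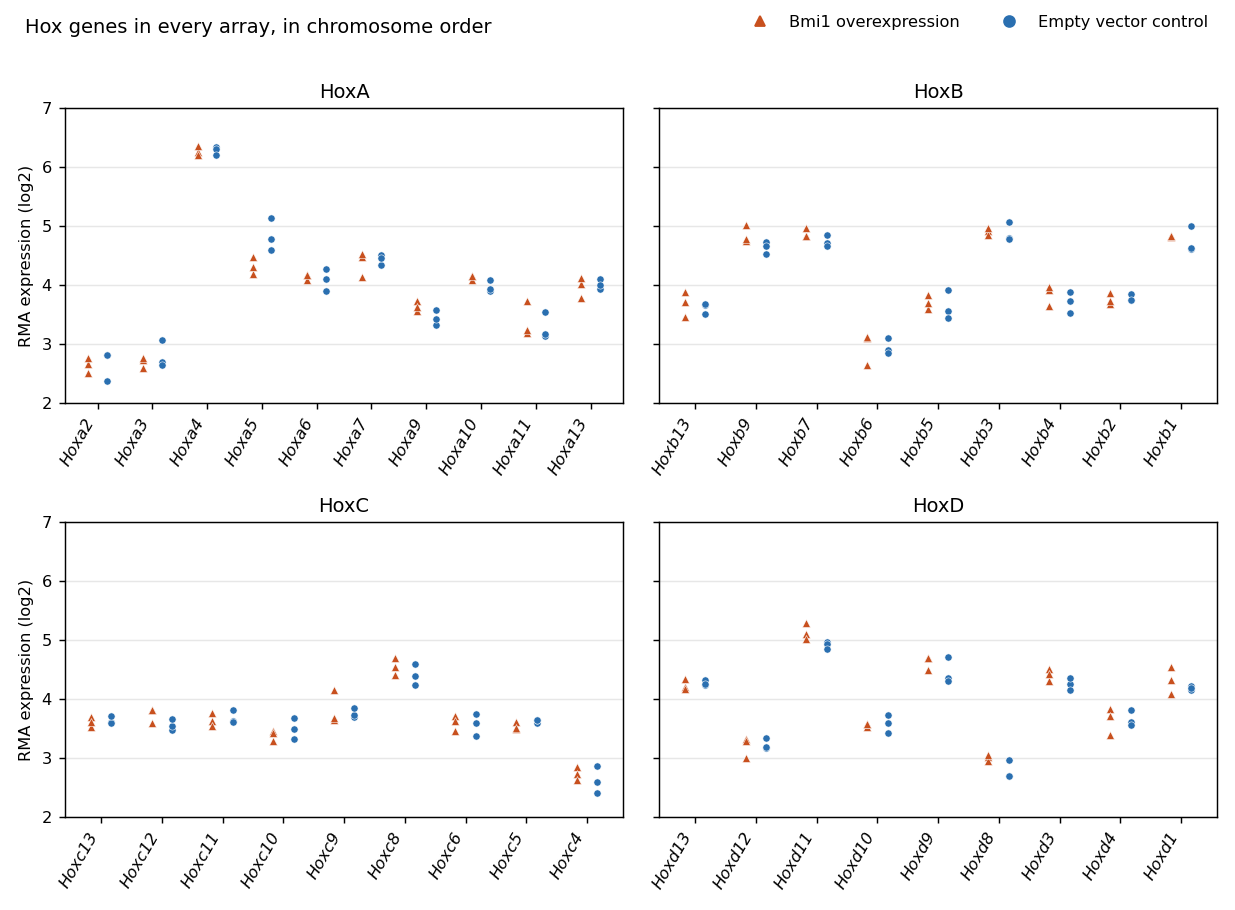
RMA expression (y axis, log2) of the 37 Hox genes (x axis) in each array, in 1 panel per cluster and in the chromosome order of the annotated gene starts, with triangles for Bmi1 overexpression and circles for Empty vector control. Readings lie near 4 or below for most genes, Hoxa4 lies above 6 on every array, and the triangles of Hoxa5 lie below all its circles.

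Hoxa5, a central HoxA gene that acts in brainstem, lung and cervical skeleton development, stood apart from the rest. It read 4.18, 4.47 and 4.30 in Bmi1 overexpression cultures, against 4.59, 4.78 and 5.14 in Empty vector controls. All Bmi1 arrays were lower than all Empty vector arrays, and the third Empty vector array was the highest. The means were 4.32 ± 0.144 and 4.84 ± 0.276 (SD, n = 3 each). The difference of -0.52 (SE 0.155, 95% interval -0.89 to -0.14) did not pass the test over all probe sets (adjusted p = 0.13 from limma). A separate limma fit to 1 probe set per gene gave an adjusted p of 0.042. Both the variance estimates and the number of tests differ in that fit. Leaving out 1 array at a time moved the difference between -0.64 and -0.37, the weakest value being that without the third Empty vector array. The other paralogs of group 5 differed by 0.06 (Hoxb5) and -0.10 (Hoxc5), and its chromosomal neighbours Hoxa4 and Hoxa6 by -0.02 and 0.04.

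Groups that did not overlap were seen for 4 of 37 Hox genes, Hoxa5, Hoxa10, Hoxb9 and Hoxd11. Over all probe sets 26.6% had groups that did not overlap. An unadjusted p under 0.05 in limma was reached by 2 Hox genes, Hoxa5 and Hoxd11, against 19.9% of all probe sets. Both shares of the Hox genes were below these shares, which are not matched for level. A mean under 5 was read for 94.6% of the Hox genes, against 57.4% of all probe sets. Of the 4 genes whose groups did not overlap, the 3 posterior ones were higher with Bmi1. Hoxd11, which patterns forelimb and kidney, read 5.29, 5.11 and 5.02 with Bmi1 and 4.98, 4.93 and 4.85 with the empty vector. Its difference was 0.22 (95% interval 0.003 to 0.438, adjusted p = 0.25 from limma). Hoxb9, which acts in the thoracic skeleton, read 5.02, 4.75 and 4.78 with Bmi1 and 4.73, 4.66 and 4.52 with the empty vector, a difference of 0.21. Hoxa10, which acts in the lumbar skeleton and uterus, read 4.16, 4.09 and 4.16 with Bmi1 and 4.09, 3.90 and 3.93 with the empty vector, a difference of 0.16. In each of these 3 genes the highest Empty vector array lay less than 0.1 below the lowest Bmi1 array.

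Within HoxA, on chromosome 6, 4 of 10 genes had a difference above 0 and the median was -0.02. The array averages were 3.893, 3.981 and 4.001 with Bmi1 and 4.038, 3.99 and 3.925 with the empty vector, and the groups overlapped. Hoxa4, which helps to pattern cervical vertebrae, was the member with a mean of at least 6. It read 6.26, 6.21 and 6.36 with Bmi1 and 6.35, 6.32 and 6.21 with the empty vector, a difference of -0.02 (95% interval -0.20 to 0.17). Next to Hoxa5, the widest spread between arrays was that of Hoxa11, a limb and uterus gene, which read 3.19, 3.74 and 3.23 with Bmi1 and 3.54, 3.14 and 3.17 with the empty vector. One array of each group was high there, and the difference was 0.10 (95% interval -0.34 to 0.54). The remaining HoxA genes differed by -0.11 (Hoxa3) to 0.20 (Hoxa9).

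Within HoxB, on chromosome 11, 8 of 9 genes had a difference above 0, with a median of 0.07 and a range of -0.02 (Hoxb2) to 0.21 (Hoxb9). The array averages were 4.161, 4.092 and 4.216 with Bmi1 and 4.162, 4.092 and 3.984 with the empty vector. The highest and the lowest of these 6 averages were those of 1 Bmi1 and 1 Empty vector array, and the others interleaved. Hoxb9 and Hoxb5 had the widest spread. Hoxb5, which acts in the neural crest and gut innervation, read 3.59, 3.83 and 3.70 with Bmi1 and 3.56, 3.92 and 3.44 with the empty vector, and its groups overlapped fully. Hoxb1, the hindbrain gene of rhombomere 4, read 4.81, 4.84 and 4.83 with Bmi1 and 5.00, 4.61 and 4.63 with the empty vector, so that the first Empty vector array exceeded every Bmi1 array.

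HoxC, on chromosome 15, had 5 genes above 0 and 4 below 0, with a median of 0.03 and a range of -0.11 (Hoxc10) to 0.17 (Hoxc12), and the groups overlapped for all 9. The array averages were 3.624, 3.668 and 3.596 with Bmi1 and 3.658, 3.541 and 3.598 with the empty vector. Hoxc9 and Hoxc8, which help to assign motor neurons of the spinal cord to columns and pools, had the widest spread. Hoxc9 read 3.65, 4.15 and 3.69 with Bmi1 and 3.70, 3.73 and 3.85 with the empty vector, the second Bmi1 array being the high one. Hoxc8 read 4.55, 4.71 and 4.41 with Bmi1 and 4.60, 4.39 and 4.23 with the empty vector.

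HoxD, on chromosome 2, had a median difference of 0.13, with 5 genes above 0 and 4 below 0 and a range of -0.04 (Hoxd13) to 0.22 (Hoxd8). The array averages were 4.061, 3.939 and 4.053 with Bmi1 and 3.951, 3.931 and 3.906 with the empty vector, and the second Bmi1 array lay within the Empty vector range. Hoxd1 and Hoxd4 had the widest spread. Hoxd1 read 4.33, 4.08 and 4.54 with Bmi1 and 4.22, 4.15 and 4.20 with the empty vector. Hoxd4 read 3.84, 3.40 and 3.71 with Bmi1 and 3.62, 3.81 and 3.56 with the empty vector. In both genes the second Bmi1 array was the lowest of all 6. Hoxd8, a central gene, had the highest difference of any Hox gene (0.22, 95% interval -0.01 to 0.46, adjusted p = 0.27 from limma).

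Medians by position along the clusters lay close to each other. The median difference was 0.03 over the 7 anterior genes, 0.04 over the 14 central genes and 0.07 over the 16 posterior genes. By paralog group, the medians ran from -0.10 in group 5 to 0.19 in group 8. All 4 members of group 9 were above 0, with differences of 0.07 (Hoxc9) to 0.21 (Hoxb9), and all 3 of group 6 were between 0.003 and 0.041. In group 13, the most posterior, 1 of 4 was above 0. Differences between the positions were not tested.

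The protein-coding genes on either side of the clusters were taken up to the fifth measured one, 40 genes in all, a list chosen after values of some of these genes were known. Of these, 2 rose, 4 fell and 34 did not pass, with a median difference of -0.01. Among genes with 1 probe set each, 7.35% passed the test, 2.98% rising and 4.37% falling. These shares are not matched for level, and 29 of the 40 neighbours had a mean of at least 5. Groups did not overlap for 25 of the 40, against 26.6% of all probe sets. An unadjusted p under 0.05 in limma was reached by 18 of them, against 19.9%. The 3 largest falls were those of Lnpk and Mtx2, on either side of HoxD, and of Skap2, beside HoxA. At HoxD 2 of 10 neighbours fell, at HoxA 1 fell and 2 rose, at HoxB 1 fell, and at HoxC none of 10 passed. The unadjusted p from limma was under 0.05 for 5 neighbours at HoxA, 6 at HoxB, 3 at HoxC and 4 at HoxD.

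**Figure D2:**
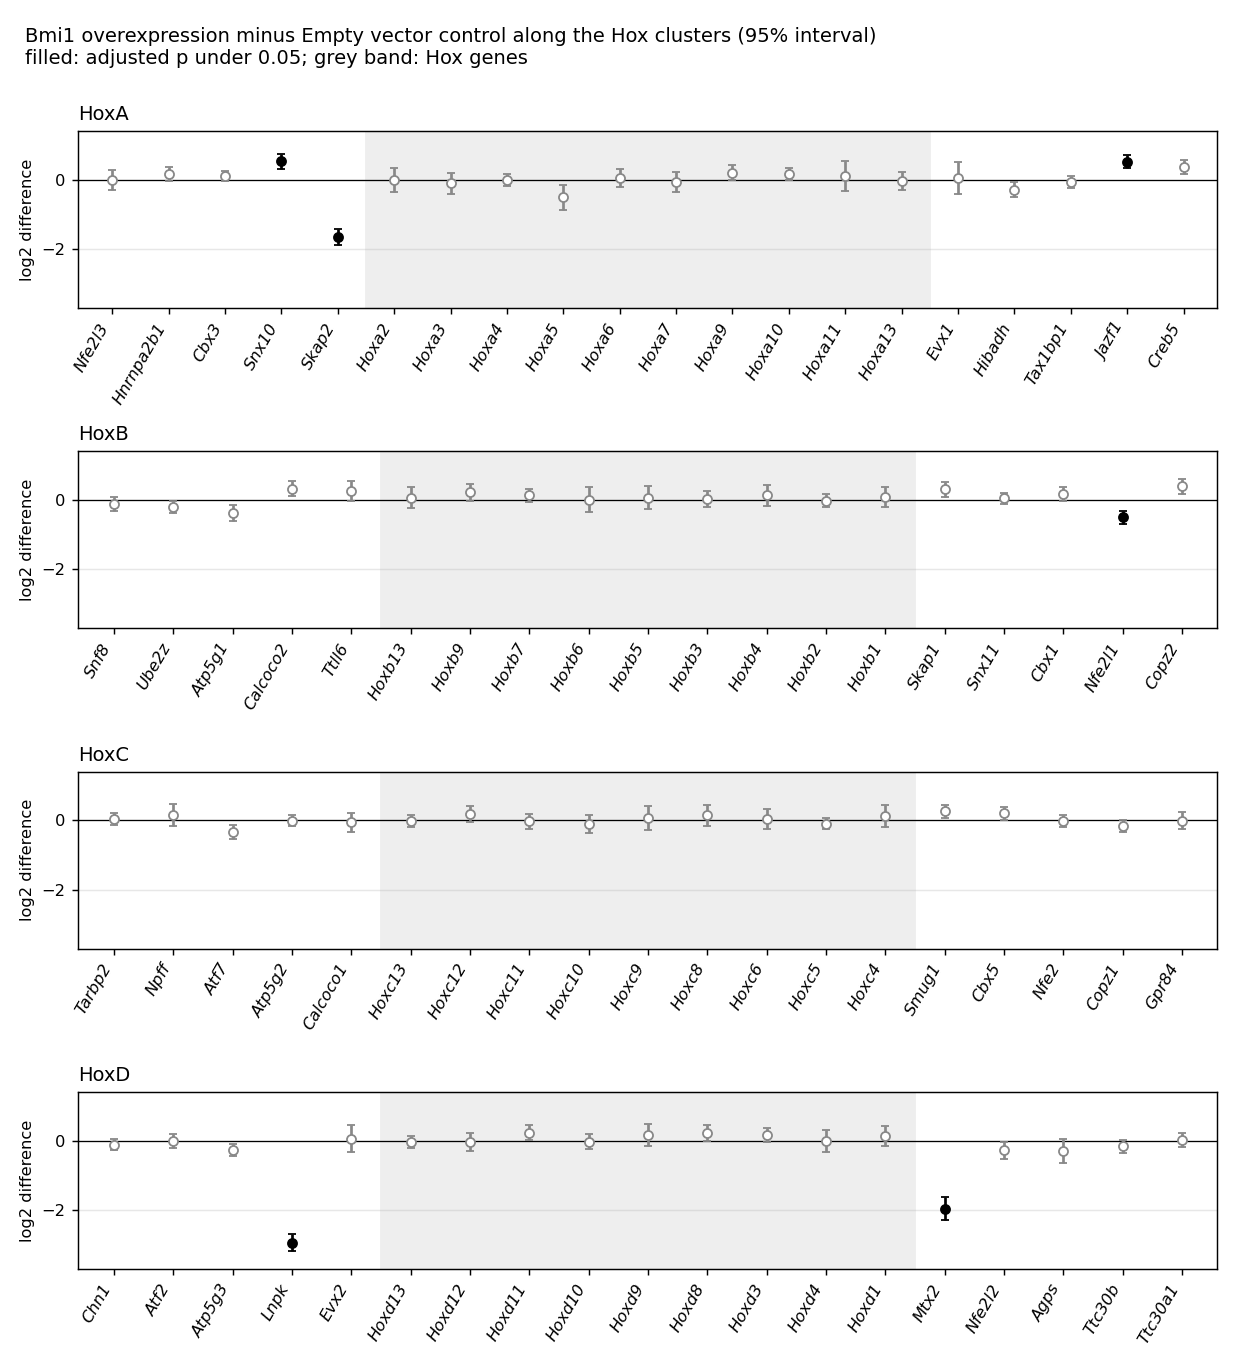
Log2 difference between Bmi1 overexpression and Empty vector control (y axis) for the Hox genes, on the grey band, and for 5 measured protein-coding genes on either side (x axis, chromosome order), with 1 panel per cluster, bars for the 95% interval and filled points for an adjusted p under 0.05 from limma. The points on the grey bands lie near 0 with Hoxa5 the lowest at -0.52, while Lnpk (-2.94), Mtx2 (-1.97) and Skap2 (-1.66) lie outside the bands. Of the 37 Hox genes, 35 had a mean under 5, where a fall may not show.

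HoxD lay between 2 genes with large falls. Lnpk (probe set 10483770), which encodes lunapark, a protein of endoplasmic reticulum tubule junctions, is the second protein-coding gene beyond Hoxd13. It read 3.20, 3.43 and 3.19 with Bmi1, against 6.18, 6.10 and 6.35 with the empty vector. The gap between the groups exceeded the spread within them many times over. Lnpk averaged 3.27 ± 0.137 and 6.21 ± 0.125 (SD, n = 3 each), a difference of -2.94 (SE 0.104, 95% interval -3.19 to -2.69, adjusted p = 0.00035 from limma). No fold is given, since the Bmi1 arrays read below the array medians, where signal and background cannot be told apart. Evx2, the homeobox gene between Lnpk and Hoxd13, averaged 5.54 ± 0.320 with Bmi1 and 5.49 ± 0.0682 with the empty vector. Its difference of 0.06 (95% interval -0.33 to 0.45) did not pass and turned negative without the first Bmi1 array.

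At the other end of HoxD, next to Hoxd1, Mtx2 (probe set 10472994) encodes metaxin 2, a subunit of the sorting machinery of the mitochondrial outer membrane. It read 4.66, 4.96 and 5.11 with Bmi1, against 7.02, 6.89 and 6.73 with the empty vector. Its groups were far apart as well. The averages were 4.91 ± 0.226 and 6.88 ± 0.147 (SD, n = 3 each), a difference of -1.97 (SE 0.137, 95% interval -2.30 to -1.64, adjusted p = 0.0012 from limma). The reading was thus 3.92-fold lower with Bmi1. The Bmi1 mean lay under 5, where RMA compresses changes, so this fold describes the reading rather than the RNA. Beyond Lnpk and Mtx2 the other 7 HoxD neighbours differed by -0.30 (Agps) to 0.02 (Ttc30a1), and none of these 7 passed. They include Atf2, a stress-responsive transcription factor (-0.004), and Nfe2l2, the regulator of the antioxidant response (-0.29, adjusted p = 0.19 from limma). The 9 Hoxd genes between Lnpk and Mtx2 differed by no more than 0.22 in either direction. Of these 9 genes, 8 had a mean under 5, and at such readings a fall may not show.

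Skap2 (probe set 10544732), an adaptor of Src family kinases, lies beside the anterior end of HoxA. It read 5.82, 5.81 and 5.84 with Bmi1, against 7.58, 7.55 and 7.30 with the empty vector. The Bmi1 arrays were nearly identical, and all were lower than the lowest Empty vector array by more than 1 log2 unit. The averages were 5.82 ± 0.0165 and 7.48 ± 0.154 (SD, n = 3 each), a difference of -1.66 (SE 0.0923, 95% interval -1.88 to -1.43, adjusted p = 0.00062 from limma), 3.15-fold lower with Bmi1. With the methods' t-test after Benjamini-Hochberg adjustment, Skap2 and Mtx2 passed with equal variances and did not pass with unequal variances. In limma, Lnpk, Mtx2 and Skap2 passed in all 6 fits that left out 1 array.

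On the same side as Skap2, its neighbour Snx10, a sorting nexin of endosomes, rose by 0.53. It read 7.24, 7.05 and 6.99 with Bmi1 and 6.63, 6.53 and 6.56 with the empty vector (adjusted p = 0.022 from limma). Thus adjacent genes moved in opposite directions. Jazf1, a zinc finger gene beyond Hoxa13, read 6.06, 6.00 and 6.01 with Bmi1 and 5.44, 5.64 and 5.45 with the empty vector, a rise of 0.51 (adjusted p = 0.018 from limma). At HoxB, Nfe2l1, a regulator of proteasome genes, read 7.85, 7.83 and 7.88 with Bmi1 and 8.25, 8.46 and 8.37 with the empty vector, a fall of 0.51 (adjusted p = 0.016 from limma). The groups of these 3 genes did not overlap. The calls were less secure, since each was lost in 5 of 6 fits without 1 array. Snx10 passed only without the third Bmi1 array, and Jazf1 only without the second and Nfe2l1 only without the first Empty vector array. The adjusted p in the other fits was 0.056 to 0.090 for Snx10, 0.060 to 0.074 for Jazf1 and 0.054 to 0.069 for Nfe2l1.

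The genes next to the remaining cluster ends did not pass. They are Evx1 next to Hoxa13 (0.04), Ttll6 next to Hoxb13 (0.26), Skap1 next to Hoxb1 (0.30), Calcoco1 next to Hoxc13 (-0.06) and Smug1 next to Hoxc4 (0.26), with adjusted p from 0.12 to 0.94 in limma. Without the first Bmi1 array, Calcoco1 had a difference of 0.03. The clusters arose by duplication of a larger segment, so that relatives of 1 gene lie beside several of them. In each of these families at most 1 gene passed the test over all probe sets. Skap2 fell by 1.66, while its relative Skap1 read 3.77, 3.58 and 3.60 with Bmi1 and 3.37, 3.45 and 3.22 with the empty vector. Snx10 rose, and Snx11 differed by 0.05. Nfe2l1 fell by 0.51, while Nfe2l3, Nfe2 and Nfe2l2 differed by -0.01, -0.03 and -0.29. The heterochromatin protein genes Cbx3, Cbx1 and Cbx5, beside HoxA, HoxB and HoxC, differed by 0.11, 0.17 and 0.20. The mitochondrial ATP synthase genes Atp5g1, Atp5g2 and Atp5g3, beside HoxB, HoxC and HoxD, differed by -0.38, -0.01 and -0.27. None of these last 6 genes passed over all probe sets. Atp5g1 and Atp5g3 did pass in 6 of 18 alternatives each, among them 1 probe set per gene (adjusted p = 0.027 and 0.044 from limma), and Nfe2l2 passed in 1, the filter at a mean of 6 (adjusted p = 0.045). Direct tests of one relative against another were not run.

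**Figure D3:**
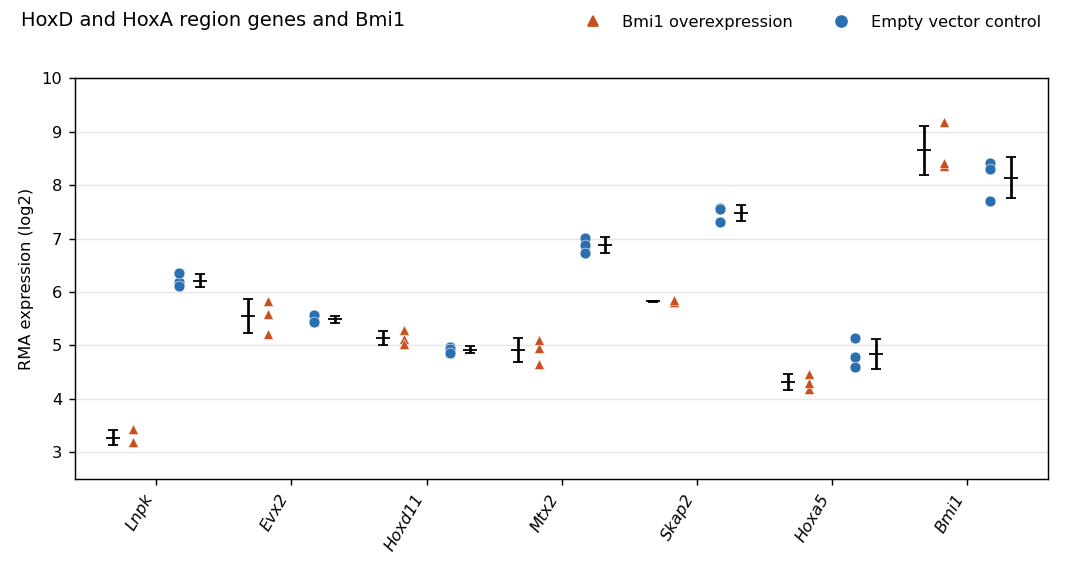
RMA expression (y axis, log2) of Lnpk, Evx2, Hoxd11 and Mtx2 from the HoxD region, Skap2 and Hoxa5 from the HoxA region and Bmi1 (x axis), with 1 point per array, triangles for Bmi1 overexpression and circles for Empty vector control, and black bars for the group mean with its SD over 3 arrays. Lnpk, Mtx2 and Skap2 show a wide gap between the groups, whereas Evx2 and Bmi1 overlap and Hoxd11 and Hoxa5 lie close together.

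The noncoding genes within the clusters were read on the same arrays. Of 21 listed, 11 had a probe set of their own and none passed the limma test (0 at an unadjusted p under 0.05), with differences of -0.18 to 0.15. Mir10a, in HoxB, averaged 1.88 with Bmi1 and 2.01 with the empty vector, and Mir10b, in HoxD, averaged 1.72 and 1.80. The 3 genes of the miR-196 seed AGGUAGU, Mir196a-1, Mir196a-2 and Mir196b, differed by -0.02, 0.01 and 0.07. Mir615, which lies in HoxC, was the one noncoding gene with groups that did not overlap. It read 6.80, 6.72 and 6.67 with Bmi1 and 6.56, 6.60 and 6.63 with the empty vector, a difference of 0.14 (adjusted p = 0.34 from limma). Probe sets for a microRNA gene on this array read the transcript of the locus and do not separate the mature RNA from its precursors. Hottip, a long noncoding RNA at the posterior end of HoxA, averaged 4.02 ± 0.113 with Bmi1 and 4.21 ± 0.156 with the empty vector (SD, n = 3 each).

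Hox proteins bind DNA together with homeodomain cofactors of the Pbx and Meis families, and 2 of 8 measured cofactors rose in Bmi1 overexpression cultures while none fell, with a median difference of 0.16. The shares to set beside this and the following counts are the 2.98% of genes that rose and the 4.37% that fell. Pbx3 read 7.41, 7.43 and 7.43 with Bmi1 and 6.63, 6.76 and 6.86 with the empty vector, a rise of 0.68 (adjusted p = 0.0063 from limma). Meis2, which is also a gene of forebrain interneuron precursors, read 8.26, 8.45 and 8.46 with Bmi1 and 7.73, 7.63 and 7.74 with the empty vector, a rise of 0.69 (adjusted p = 0.0070 from limma). In both genes every Bmi1 array was above every Empty vector array. Pbx2 (-0.25) and Meis1 (0.20) did not pass.

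Of 29 measured Polycomb components 1 rose and none fell, with a median difference of 0.08, beside 7.35% of all genes that passed. It was Ezh2, the histone H3 lysine 27 methyltransferase of Polycomb repressive complex 2, which read 9.19, 9.26 and 9.26 with Bmi1 and 8.93, 8.80 and 8.73 with the empty vector. The rise of 0.42 (adjusted p = 0.032 from limma) was lost in 5 of 6 fits without 1 array. It passed only without the first Empty vector array, with an adjusted p up to 0.12. Groups did not overlap for 12 of the 29 components, against 26.6% of all probe sets. An unadjusted p under 0.05 in limma was reached by 10 of them, against 19.9%. These shares are not matched for level, and 28 of the 29 components had a mean of at least 5. Pcgf2 differed by 0.97 with groups that did not overlap, and did not pass (adjusted p = 0.074 from limma). Trithorax group activators, which oppose Polycomb at Hox genes, numbered 18 and none passed in limma (2 at an unadjusted p under 0.05), with a median of 0.03. Among 21 genes of the retinoic acid pathway and other upstream regulators of Hox genes, none rose and 1 fell. It was Gdf11, a TGF-beta family ligand that sets the trunk-to-tail transition of Hox expression in the mouse, which read 6.26, 6.15 and 6.34 with Bmi1 and 6.70, 6.76 and 6.57 with the empty vector. Its fall of 0.43 (adjusted p = 0.042 from limma) was lost in all 6 fits without 1 array, with an adjusted p of 0.070 to 0.14, and after quantile normalization (0.054). Of the posterior Hox activators, Cdx1, Cdx2 and Cdx4 differed by 0.14, -0.10 and -0.11.

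Of 19 forebrain patterning genes 3 rose and 1 fell, with a median difference of 0.14, beside 7.35% of all genes that passed. Dlx1, a gene of ventral forebrain interneuron precursors, read 5.84, 5.60 and 5.59 with Bmi1 and 4.60, 4.67 and 4.79 with the empty vector, a rise of 0.99 (adjusted p = 0.0036 from limma). Nr2e1, a nuclear receptor of forebrain stem cells, rose by 0.74 (adjusted p = 0.010), and Dlx2 rose by 0.87 (adjusted p = 0.048). Six3, a gene of the anterior forebrain, fell by 0.34 (adjusted p = 0.044). The call of Dlx2 was lost in 5 of 6 fits without 1 array (adjusted p up to 0.13), all but that without the third Empty vector array, and the call of Six3 in all 6 (adjusted p 0.078 to 0.14). The forebrain list and the list that follows were not tested against each other. Of 25 midbrain, hindbrain and spinal cord patterning genes 1 rose and none fell, beside 7.35% of all genes that passed. It was Nkx2-2, a gene of the ventral spinal cord that also marks oligodendrocyte precursors, which read 6.77, 7.00 and 6.70 with Bmi1 and 4.82, 5.36 and 4.85 with the empty vector, a rise of 1.82 (adjusted p = 0.0029 from limma).

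**Figure D4:**
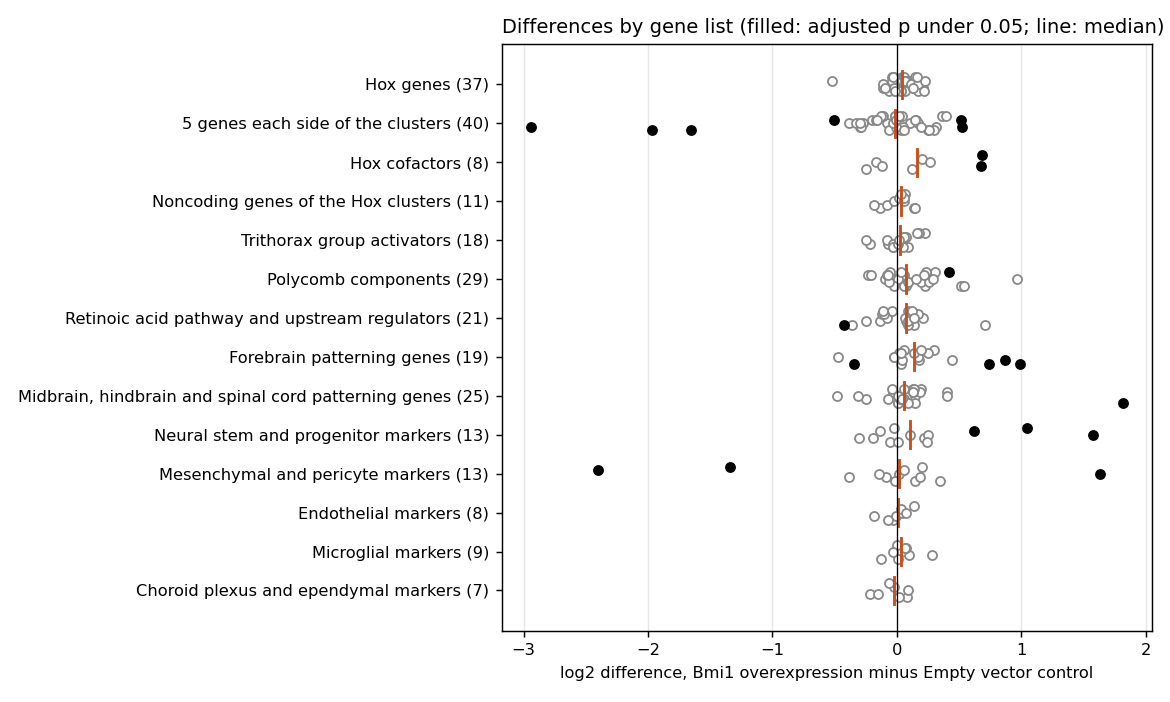
Log2 difference between Bmi1 overexpression and Empty vector control (x axis) for each gene of the Hox clusters, of their neighbourhood and of 12 further lists (y axis, number of measured genes in brackets), with filled points for an adjusted p under 0.05 from limma and a line at the median of each list. The 37 Hox genes have no filled point and lie between -0.52 and 0.22, while their neighbours reach -2.94. A mean under 5, where a fall may not show, was read for 35 of the 37.

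Markers of other cells that neurosphere cultures could hold moved in part with the groups. Of 13 mesenchymal and pericyte markers 1 rose (Prrx1, by 1.63, adjusted p = 0.0012) and 2 fell (Twist1, by 2.40, adjusted p = 0.0054, and Acta2, by 1.34, adjusted p = 0.023, all from limma). The fall of Acta2 was lost in 4 of 6 fits without 1 array (adjusted p up to 0.089), holding without the second Empty vector or the third Bmi1 array. The median difference of the 13 markers was 0.02, with 7 above 0 and 6 below 0, and the collagen genes Col1a1 and Col1a2 differed by 0.15 and 0.18. The summed linear level of the 13 markers was 516 to 638 with Bmi1 and 791 to 1060 with the empty vector, a sum to which the bright Acta2 and Twist1 contribute most of the fall. Of the 13 markers, 6 had a mean of at least 5 over the 6 arrays and 7 a mean under 5. Lum averaged 1.97 with Bmi1 and 1.98 with the empty vector, and Rgs5 2.37 and 2.46. Col1a1 averaged 5.74 and 5.59, and Foxc1 5.33 and 5.72. Lnpk, Mtx2, Skap2 and Hoxa5 were lower in the same arrays as Acta2 and Twist1, while most of the other markers were not, and their part in these differences was not tested. Of 13 neural stem and progenitor markers 3 rose, Prom1 by 1.58, Sox9 by 0.62 and Hes5 by 1.05, beside 2.98% of all genes that rose. The call of Hes5 was lost with the methods' t-test after Benjamini-Hochberg adjustment. The sums of these markers were 16340 to 16770 with Bmi1 and 15700 to 16340 with the empty vector. None of 8 endothelial, 9 microglial and 7 choroid plexus and ependymal markers passed the limma test (0, 0 and 1 at an unadjusted p under 0.05). The sums of endothelial markers were 138 to 146 with Bmi1 and 135 to 142 with the empty vector, those of microglial markers 99.8 to 108 and 95.2 to 104, and those of choroid plexus and ependymal markers 120.5 to 124.9 with Bmi1 and 128 to 139 with the empty vector.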

How the data were processed

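Affymetrix Mouse Gene ST 1.0 arrays were hybridized with RNA of 6 neurosphere cultures, 1 array each. The authors deposited log2 expression values per probe set, made by RMA in Affymetrix Expression Console (versions and build not given in the sources used here). Gene names came from the platform annotation, which gives 1 gene for 21789 of 35557 probe sets. RefSeq (GRCm38.p6) held 21698 of these and changed 0 symbols. It also gave gene order, promoters and microRNAs. Where a gene had several probe sets, the one with the highest mean was used. The comparison used R 4.3.3 with limma 3.58.1, that is lmFit followed by eBayes, two-sided. P-values were adjusted by Benjamini-Hochberg over all 35557 probe sets and called under 0.05. With 3 arrays per group, no exact permutation test of 1 gene can go below 0.1. Precision is limited by the number of arrays.

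The Hox genes and the lists were chosen with earlier results of these data known. All Hox genes were accounted for. Those called, or not overlapping with a difference of at least 0.5, are given in full, with the 2 of widest spread per cluster and others as examples chosen after their values were seen. From other lists up to 4 called genes are named, with the genes at the cluster ends. A list of 27 genes flanking the clusters, 24 measured (2 rose, 3 fell), lies within the 40 neighbours described. Alternatives were the t-test named in the methods (also in the form of Welch), leaving out dim probe sets, other ways to treat several probe sets of a gene, array scalings, variance priors, array weights, a replicate block and leaving out 1 array at a time. Plots were made with matplotlib 3.10.9. Scripts were tested on simulated data.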

Additional observations from a re-analysis of the deposited data

How the results depend on the processing

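No Hox gene was called under any alternative except Hoxa5. It was called when limma was fitted to 1 probe set per gene or to the mean of a gene's probe sets. Filters at a mean of 5 or 6 left 2 and 1 Hox genes to test. The 6 calls among the 40 neighbours became 12 with 1 probe set per gene, 10 with the mean of probe sets, 11 with a filter at a mean of 5, 11 with an intensity trend and 11 with trend and robust prior. They became 3 with the methods' t-test at the methods' thresholds, 1 (Lnpk) with its Welch form, and 3 to 4 with 1 array left out. The 2025 calls over all probe sets became 300 with the methods' t-test at its thresholds, 210 with the Welch form, 3424 and 3193 with filters at 5 and 6, 3190 with an intensity trend, 3062 with trend and robust prior, and 974 to 1275 with 1 array left out. Those 300 were 200 lower and 100 higher with Bmi1. Of 21 named genes called with limma, the methods' t-test after Benjamini-Hochberg adjustment called 14, without Snx10, Ezh2, Gdf11, Six3, Dlx2, Hes5 and Acta2, and its Welch form called 1, Lnpk. Over the limma alternatives the calls in the other lists were 0 to 7 for Polycomb components (1 in the report), 2 to 8 for forebrain genes (4), 0 to 3 for the retinoic acid pathway and upstream regulators (1), 0 to 2 for midbrain, hindbrain and spinal cord genes (1), 0 to 2 for Trithorax activators (0), 1 to 5 for neural stem markers (3), 2 to 3 for cofactors (2), 2 to 3 for mesenchymal markers (3), 0 to 1 for choroid plexus and ependymal markers (0) and 3 to 8 for the genes flanking the clusters (5). Same-numbered arrays did not deviate together (correlations 3.4e-05, -0.032 and -0.018), so no pairing by number was found. These correlations cannot exclude that same-numbered cultures shared a preparation. With the replicate number as a block, 0 Hox genes, 3 neighbours (Lnpk, Mtx2 and Skap2) and 850 probe sets were called. Under median centring Snx11 had a difference of -0.004 and Evx1 of -0.016, opposite in sign to the values above. With 1 array left out, the difference ranged from -0.107 to 0.226 for Evx1, -0.072 to 0.016 for Nfe2, -0.158 to 0.031 for Calcoco1 and -0.089 to 0.228 for Evx2, each crossing 0. Of 725 values of 42 genes under the alternatives, 623 kept direction and side of the threshold, 79 lost the call, 15 gained it and 8 changed sign. The causes were not tested. A lower number of tests and of arrays enters the counts by construction, and so does a variance prior estimated anew in each limma fit. Detection calls were not used here, so for most Hox genes signal over background is unknown.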
